A study of Mus musculus with 26 samples.

Results

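Polycomb repressive complex genes were followed in ES cells that lack ZFP57, a KRAB zinc finger protein that keeps DNA methylation at imprinted regions. The members were 10 genes taken by symbol from an expression table of 24409 genes, namely *Ezh1*, *Ezh2*, *Eed*, *Suz12*, *Jarid2*, *Mtf2*, *Rnf2*, *Cbx2*, *Cbx7* and *Cbx8*. Of these, 4 lie on chromosome 11 (*Ezh1*, *Suz12*, *Cbx2*, *Cbx8*) and 6 elsewhere, and the comparison of these sets was the question asked of the data. All 10 were in the table and all 10 passed the filter on low values, a mean of at least 0.1 FPKM over the libraries.

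RNA was measured in 3 wild-type (WT) and 2 ZFP57 KO (zygotic) libraries, 5 of the 26 samples of the series. All came from male C57BL/6J ES cells, which are pluripotent cells grown from the inner cell mass. The embryos were collected at E2.5, and the paper states that the lines were derived from blastocysts. The cells were kept in N2B27 medium with 2i (inhibitors of Erk and Gsk3) and LIF, and used up to passage 15. KO cells were homozygous for a targeted disruption of the *Zfp57* coding exons that hold the KRAB domain and the zinc fingers, and the deletion was zygotic, not maternal and zygotic. The libraries are numbered in the labels and karyotyping of each line is stated, but not the result of the karyotype nor whether each RNA library came from its own line, so p-values measure the spread between these libraries.

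Polycomb proteins keep developmental genes silent through 2 kinds of complex. Polycomb repressive complex 2 (PRC2) puts methyl groups on lysine 27 of histone H3 and is built from an EZH enzyme together with EED and SUZ12, while PRC1 puts ubiquitin on histone H2A through a RING1 enzyme and can read the PRC2 mark through a CBX protein. In ES cells both complexes sit at CpG-rich promoters of genes that are used later in the embryo.

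Levels are given in FPKM, fragment numbers scaled to transcript length and to library size, and changes as log2 fold changes of KO against WT on log2(FPKM + 0.1) with their standard error (SE). A gene was called at an adjusted p under 0.05 in limma, with Benjamini-Hochberg adjustment over the 14612 genes tested. *Zfp57* itself had 75.9, 72.3 and 70.6 FPKM in WT and 19.0 and 21.6 FPKM in KO, a log2 fold change of -1.84 (SE 0.06, adjusted p = 0.00023). The value of 1 fragment on 1 kb was inferred as 0.0170 to 0.0197 FPKM, which corresponds to about 50900000 to 58900000 fragments in a library. The 10 pluripotency markers were at 4.43 to 210 FPKM in every library. Of 16 markers of other cell types 13 stayed under 1 FPKM everywhere and *Dcn*, a fibroblast gene, was listed at 0, while the sum over the 16 was 5.24 to 5.97 FPKM in WT and 6.54 to 6.69 FPKM in KO. In bulk RNA, fewer cells that express a gene and less RNA per cell cannot be told apart.

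**Figure D1:**
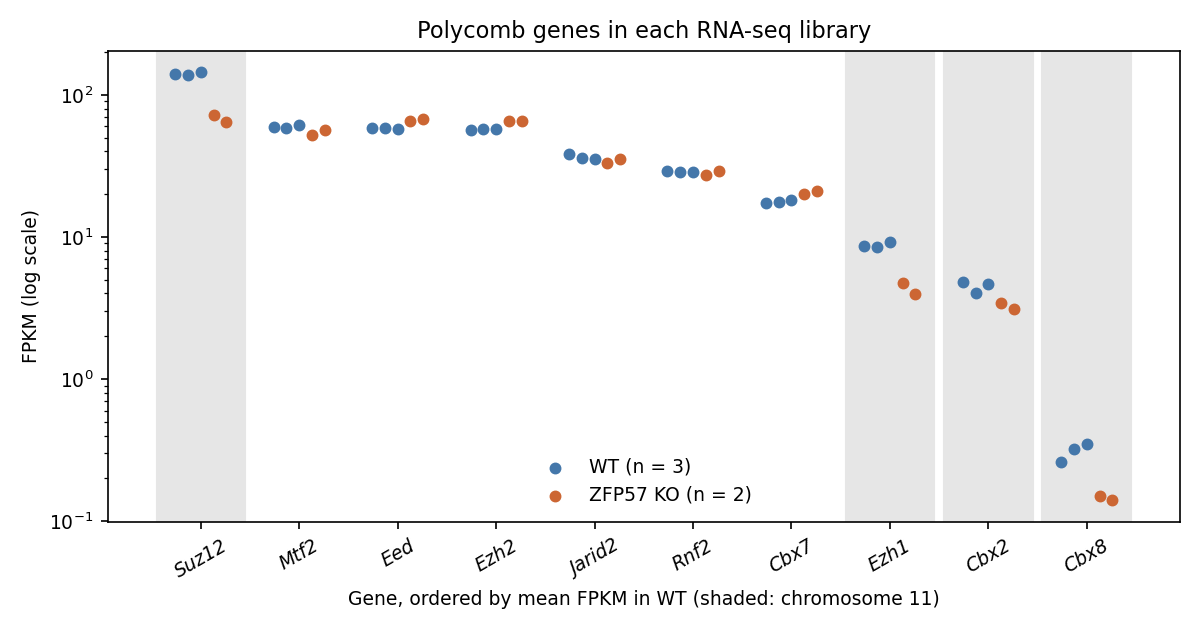
FPKM of the 10 Polycomb genes on a log scale, 1 point per library, WT (n = 3) in blue and ZFP57 KO (n = 2) in orange, with genes ordered by their mean in WT and chromosome 11 genes shaded. In all 4 shaded columns both KO points lie below the 3 WT points, as for *Suz12* with 64.1 and 71.8 FPKM against 138 to 144 FPKM.

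Of the 10 genes 7 were called, 3 higher and 4 lower in KO. The background was high: of all genes tested 41.1% were called, 18.8% higher and 22.3% lower. The 4 lower genes were the 4 members on chromosome 11, whereas the 3 higher genes (*Ezh2*, *Eed*, *Cbx7*) and the 3 that were not called (*Jarid2*, *Mtf2*, *Rnf2*) lie on other chromosomes. Chromosome 11 was lower as a whole, with 67.4% of its 1224 tested genes called lower, so 4 of 4 is read against that share. WT and KO values did not overlap for 9 of the 10 members, *Rnf2* being the exception, against 63.4% of all genes tested.

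The core subunit *Suz12*, without which PRC2 does not hold together, was the most abundant of the 10 genes in WT and changed most in FPKM. It lies on chromosome 11 at 79993106 to 80034123 (mm10) and was at 140, 138 and 144 FPKM in WT and at 71.8 and 64.1 FPKM in KO. Both KO libraries were thus far below all WT libraries, the KO mean being 48.3% of the WT mean (141 ± 3.20, SD, n = 3, against 68.0 ± 5.44, SD, n = 2). The log2 fold change was -1.05 (SE 0.06, adjusted p = 0.00033). With an exon length of 4373 bp these levels correspond to about 32137 to 35623 fragments in WT and 15477 to 16428 in KO, so counting error is small beside the spread of the libraries.

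*Ezh1*, the EZH enzyme that is usually linked to resting and differentiated cells, changed by nearly the same factor from a low level. It lies 21.2 Mb from *Suz12*, on chromosome 11 at 101191115 to 101226463. Its levels were 8.60, 8.52 and 9.18 FPKM in WT and 4.72 and 3.99 FPKM in KO. The KO mean was 49.7% of the WT mean, with a log2 fold change of -0.997 (SE 0.08, adjusted p = 0.00064).

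The other members of the PRC2 core were higher in KO by a small margin. *Ezh2*, the main EZH enzyme of dividing cells, on chromosome 6 at 47530274 to 47595270, was at 56.2, 57.9 and 57.5 FPKM in WT and at 65.4 and 65.9 FPKM in KO. *Eed*, the subunit that binds the methylated histone, on chromosome 7 at 89954654 to 89980976, was at 58.1, 58.9 and 57.8 FPKM in WT and at 65.0 and 68.2 FPKM in KO. For both genes every KO library was above every WT library. The KO mean was 115% of WT for *Ezh2* (log2 fold change 0.20, SE 0.03, adjusted p = 0.0055) and 114% for *Eed* (log2 fold change 0.19, SE 0.04, adjusted p = 0.0088).

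The proximal promoters of these 4 core genes are shown because chromosome 11 genes were lower and the others higher, and because ZFP57 recognises a methylated CpG within TGCCGC. Each line gives the 250 bases before a transcript start (RefSeq, GRCm38.p6, the build also called mm10), 5′ to 3′ on the strand of the gene, with every CpG in capitals. The start used for *Ezh2* is not the outermost, so that 240 of its 250 bases lie inside the gene span, whereas the other 3 windows lie outside theirs.
Suz12, chr11:79992856-79993105, plus strand: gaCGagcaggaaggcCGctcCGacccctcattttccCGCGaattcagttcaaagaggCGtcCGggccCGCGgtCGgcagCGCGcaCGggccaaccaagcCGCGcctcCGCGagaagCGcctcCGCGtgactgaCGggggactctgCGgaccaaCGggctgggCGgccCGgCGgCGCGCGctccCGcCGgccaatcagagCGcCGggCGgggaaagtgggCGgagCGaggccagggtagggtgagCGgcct
Ezh1, chr11:101226464-101226713, minus strand: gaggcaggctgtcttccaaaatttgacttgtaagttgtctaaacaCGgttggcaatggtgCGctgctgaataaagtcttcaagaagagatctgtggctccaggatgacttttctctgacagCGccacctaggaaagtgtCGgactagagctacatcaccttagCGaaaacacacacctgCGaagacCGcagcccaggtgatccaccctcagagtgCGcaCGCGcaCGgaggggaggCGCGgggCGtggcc
Ezh2, chr6:47595031-47595280, minus strand: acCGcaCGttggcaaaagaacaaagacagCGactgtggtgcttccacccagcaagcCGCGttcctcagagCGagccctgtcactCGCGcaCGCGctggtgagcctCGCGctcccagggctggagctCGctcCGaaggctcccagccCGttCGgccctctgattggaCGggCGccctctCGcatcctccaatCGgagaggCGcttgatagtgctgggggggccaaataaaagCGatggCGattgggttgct
Eed, chr7:89980977-89981226, minus strand: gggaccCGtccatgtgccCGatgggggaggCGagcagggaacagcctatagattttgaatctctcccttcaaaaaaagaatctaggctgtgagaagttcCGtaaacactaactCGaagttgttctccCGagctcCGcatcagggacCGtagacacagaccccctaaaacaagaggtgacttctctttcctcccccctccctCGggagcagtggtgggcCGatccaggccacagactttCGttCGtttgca
The window of *Suz12* holds 37 CpGs, that of *Ezh2* 23, that of *Ezh1* 14 and that of *Eed* 12. Whether the number of CpGs goes with the direction of change was not tested. RefSeq promoter entries were at hand for 9 of the 10 members (11 windows, *Jarid2* and *Mtf2* having 2 each, and 1 window of each of these and that of *Cbx7* lying wholly inside the gene span), with a median of 22 CpGs against 15 in 13863 windows of tested genes. TGCCGC or its reverse complement GCGGCA was found in 0 of the 11 windows. It was found in 13.8% of the windows of tested genes and in 8.68% of all 32851 windows, which says only that these letters are not in the windows of the members.

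The nearest deposited ZFP57 peak was likewise outside the genes. A peak within 20 kb of the gene span was found for 0 of the 10 members, against 4.25% of the 24285 genes placed on the genome, and a window of 50 kb gave 0 as well. The closest was a peak of 413 bp on chromosome 11 at 101312867 to 101313279, 86404 bp from *Ezh1*. For *Suz12* the nearest peak was 247499 bp away, and for *Cbx2* and *Cbx8* 894273 and 907557 bp away, the same peak in both cases. For the 6 members on other chromosomes it was between 677123 bp (*Eed*) and 2345781 bp (*Cbx7*) away.

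The proportions among PRC2 transcripts moved with these changes. Relative to *Eed*, *Suz12* was at 2.42 ± 0.076 in WT (SD, n = 3, the lowest being 2.35) and at 1.11 and 0.941 in the KO libraries, as ratios of FPKM. The ratio of *Eed* to *Ezh2* averaged 1.02 ± 0.014 over WT libraries (SD, n = 3) against 1.01 ± 0.028 over KO libraries (SD, n = 2), a difference smaller than the spread. *Ezh1* made up 13.3, 12.8 and 13.8% of the FPKM of *Ezh1* and *Ezh2* together in WT and 6.73 and 5.71% in KO. The sum of both EZH genes was 64.8, 66.4 and 66.7 FPKM in WT and 70.1 and 69.9 FPKM in KO, above WT in both KO libraries. In WT *Suz12* stood well above *Mtf2*, *Eed* and *Ezh2*, whose ranges touch one another in that order (58.8 to 61.2, 57.8 to 58.9 and 56.2 to 57.9 FPKM). In KO the ranges of *Suz12* (64.1 to 71.8 FPKM), *Eed* and *Ezh2* overlapped and *Mtf2* came after them.

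**Figure D2:**
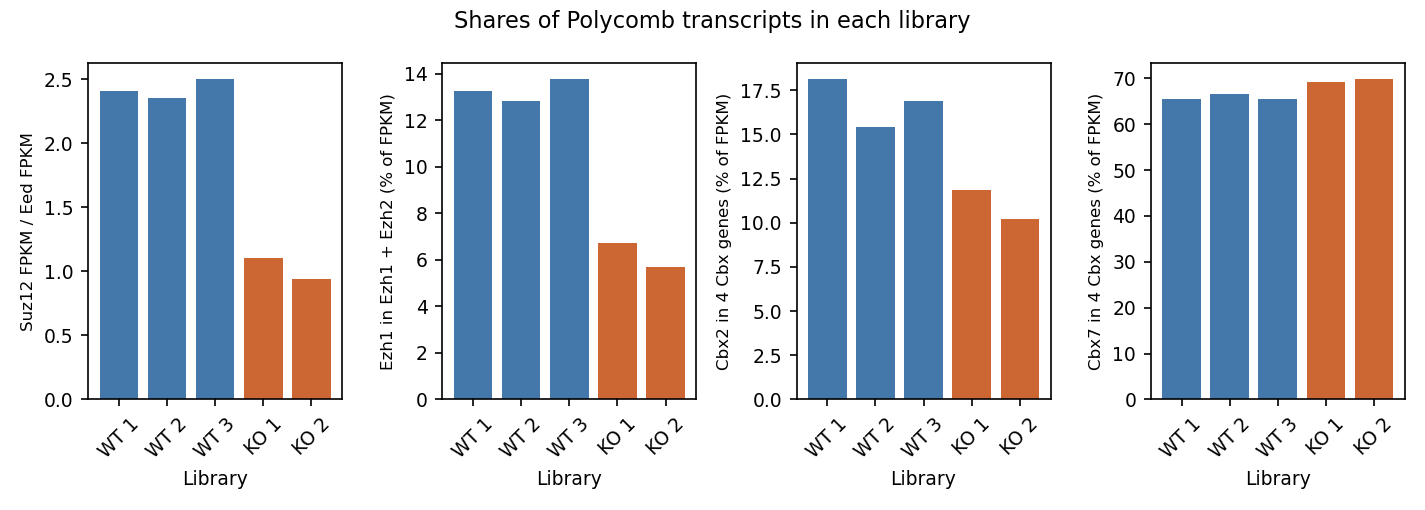
Ratio of *Suz12* to *Eed* and shares of *Ezh1* in *Ezh1* and *Ezh2* and of *Cbx2* and *Cbx7* in the sum of 4 CBX genes (*Cbx2*, *Cbx6*, *Cbx7*, *Cbx8*), as ratios or percentages of FPKM, 1 bar per library with WT in blue and ZFP57 KO in orange. The first 3 panels are lower in both KO libraries than in any WT library, while the *Cbx7* share is higher (69.3 and 69.8% against 65.5 to 66.6%).

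*Mtf2* and *Jarid2* encode accessory subunits that bring PRC2 to CpG-rich chromatin, and neither was called. *Mtf2* (chromosome 5) was at 59.3, 58.8 and 61.2 FPKM in WT and at 52.2 and 56.5 FPKM in KO, with a log2 fold change of -0.14 (SE 0.05, adjusted p = 0.055). It was called when the libraries were rescaled to equal sums (adjusted p = 0.026) or equal medians (adjusted p = 0.027) and without KO library 2 (adjusted p = 0.033). *Jarid2* (chromosome 13) was at 38.3, 36.1 and 35.5 FPKM in WT and at 33.2 and 35.1 FPKM in KO, with a log2 fold change of -0.10 (SE 0.05, adjusted p = 0.16). The KO values of both genes were below WT, by less in *Jarid2*, where the highest KO value nearly met the lowest WT value. *Mtf2* relative to *Suz12* went from 0.424 ± 0.00085 in WT (SD, n = 3) to 0.804 ± 0.109 over the KO libraries (SD, n = 2), and *Jarid2* relative to *Suz12* from 0.260 to 0.505.

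Among the PRC1 members, *Rnf2*, which encodes the ubiquitin ligase RING1B, had the smallest difference. It was at 29.1, 28.4 and 28.6 FPKM in WT and at 27.2 and 28.9 FPKM in KO on chromosome 1, and its groups overlapped (log2 fold change -0.03, SE 0.04, adjusted p = 0.56). *Rnf2* made up 95.4% of the FPKM of *Rnf2* and its paralogue *Ring1* in WT and 95.2% in KO.

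The 3 CBX members encode readers of the histone mark, and they differed in level and in direction. *Cbx7*, the CBX protein best known in pluripotent cells, on chromosome 15, was at 17.3, 17.5 and 18.1 FPKM in WT and at 20.2 and 21.1 FPKM in KO. Its KO mean was 117% of the WT mean (log2 fold change 0.23, SE 0.04, adjusted p = 0.0082). In RefSeq 2415 bp of the *Cbx7* span overlap that of *Apobec3*, and 821 bp of *Cbx2* and 62 bp of *Ezh2* overlap the spans of long noncoding RNAs, and whether the counting used strand is not given in the sources used here.

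*Cbx2* and *Cbx8*, which are better known from differentiating cells, are neighbours on chromosome 11, 5027 bp apart. *Cbx2* (119023019 to 119031275) was at 4.79, 4.06 and 4.65 FPKM in WT and at 3.45 and 3.09 FPKM in KO, 72.7% of the WT mean (log2 fold change -0.45, SE 0.10, adjusted p = 0.014). That call was lost without WT library 3 (adjusted p = 0.051), without KO library 2 (adjusted p = 0.076) and with no filter on low values (adjusted p = 0.066). *Cbx8* (119036303 to 119040913) was at 0.26, 0.32 and 0.35 FPKM in WT and at 0.15 and 0.14 FPKM in KO, about 20 to 26 fragments against 11 in each KO library. Its groups did not overlap and its KO mean was 46.8% of the WT mean (adjusted p = 0.025). The log2 fold change of *Cbx8* was -0.74 (SE 0.19), and at this level it hung on the pseudocount, with -0.19 at a pseudocount of 1 and -1.04 at 0.01. The call was lost without WT library 2 or 3 and without KO library 1 or 2 (adjusted p = 0.065, 0.078, 0.066 and 0.086).

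Summed over *Cbx2*, *Cbx6*, *Cbx7* and *Cbx8*, 4 CBX genes of PRC1, the level averaged 26.8 ± 0.69 FPKM over WT libraries (SD, n = 3) against 29.7 ± 0.73 FPKM over KO libraries (SD, n = 2). The mean share of *Cbx7* in this sum went from 65.9 to 69.6% and that of *Cbx6* from 16.1 to 18.9%. The share of *Cbx2* was 18.1, 15.4 and 16.9% in WT and 11.8 and 10.2% in KO, and the mean share of *Cbx8* went from 1.16 to 0.489%, so that both CBX members of chromosome 11 had smaller shares in KO and the 2 CBX genes of chromosome 15 larger ones.

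For the contrast by chromosome, the mean log2(FPKM + 0.1) of the 4 chromosome 11 members minus that of the 6 other members was formed in each library. It was -2.54, -2.54 and -2.43 in WT and -3.26 and -3.48 in KO. The KO mean was lower by 0.87 than the WT mean (-2.50 ± 0.06, SD, n = 3, against -3.37 ± 0.16, SD, n = 2), with a pooled SD of 0.10. That chromosome 11 was lower as a whole in KO was known beforehand from these data. The sign of this difference was therefore largely given and is no test of the members. The median log2 fold change was -0.87 over the chromosome 11 members and 0.08 over the others, beside -0.47 over all tested genes of chromosome 11 and 0.01 over those elsewhere.

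The members were then set against their own chromosome. Of the 1224 tested genes on chromosome 11, 135 had a lower log2 fold change than *Suz12*, 153 a lower one than *Ezh1*, 286 a lower one than *Cbx8* and 653 a lower one than *Cbx2*. *Suz12* and *Ezh1* were thus in the lower part of their chromosome, and *Cbx2* was at its middle. On chromosome 6, whose median was 0.17, 52.6% of genes lay below *Ezh2*. The shares were 72.9% for *Eed* on chromosome 7 and 69.6% for *Cbx7* on chromosome 15.

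When the median deviation of each chromosome was subtracted in every library and limma refitted, 4 of the 10 members were called, against 37.2% of all genes tested. *Suz12* (log2 fold change -0.57, adjusted p = 0.00067) and *Ezh1* (-0.52, adjusted p = 0.0031) stayed lower, and *Eed* (0.20, adjusted p = 0.0081) and *Cbx7* (0.18, adjusted p = 0.015) stayed higher. *Cbx2* had a log2 fold change of 0.03 (adjusted p = 0.79), *Cbx8* one of -0.26 (adjusted p = 0.32) and *Ezh2* one of 0.03 (adjusted p = 0.55). These 3 genes therefore did not stand apart from the median of their chromosome by this test, and the fall of *Cbx2* turned to a value just above 0.

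**Figure D3:**
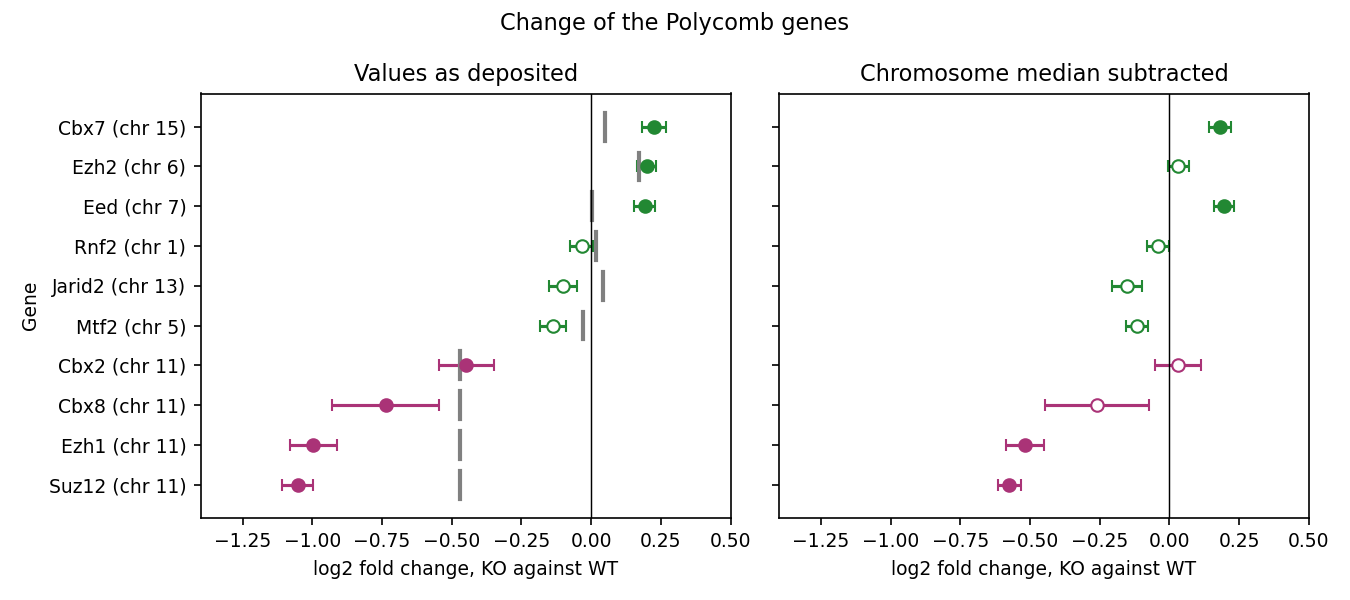
Log2 fold change of KO against WT for the 10 genes, with bars of 1 SE from limma, in the deposited values (left) and after subtraction of the chromosome median (right). Chromosome 11 genes are purple and others green, filled points have an adjusted p under 0.05, and grey ticks on the left mark the median of all tested genes of the chromosome. *Suz12* and *Ezh1* stay filled on both sides, at -1.05 and -0.997 on the left and -0.57 and -0.52 on the right.

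Tested genes that start within 2 Mb gave the local picture. Around *Suz12* 48 of 55 such genes had a log2 fold change below 0, with a median of -0.46, and 7 were lower than *Suz12* itself. Around *Ezh1* it was 91 of 105 with a median of -0.56, and 20 were lower than *Ezh1*. Around *Cbx2* it was 68 of 77, *Cbx8* among them, with a median of -0.41, and 34 were lower than *Cbx2*. The chromosome 11 members thus lie among genes that were mostly lower too. This held for the whole chromosome, where 1095 of the 1224 tested genes had a log2 fold change below 0. Around the members elsewhere the medians were 0.18 for *Ezh2* (28 genes), 0.28 for *Eed* (11), 0.01 for *Cbx7* (79), 0.07 for *Rnf2* (21), -0.06 for *Jarid2* (15) and -0.25 for *Mtf2* (27).

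**Figure D4:**
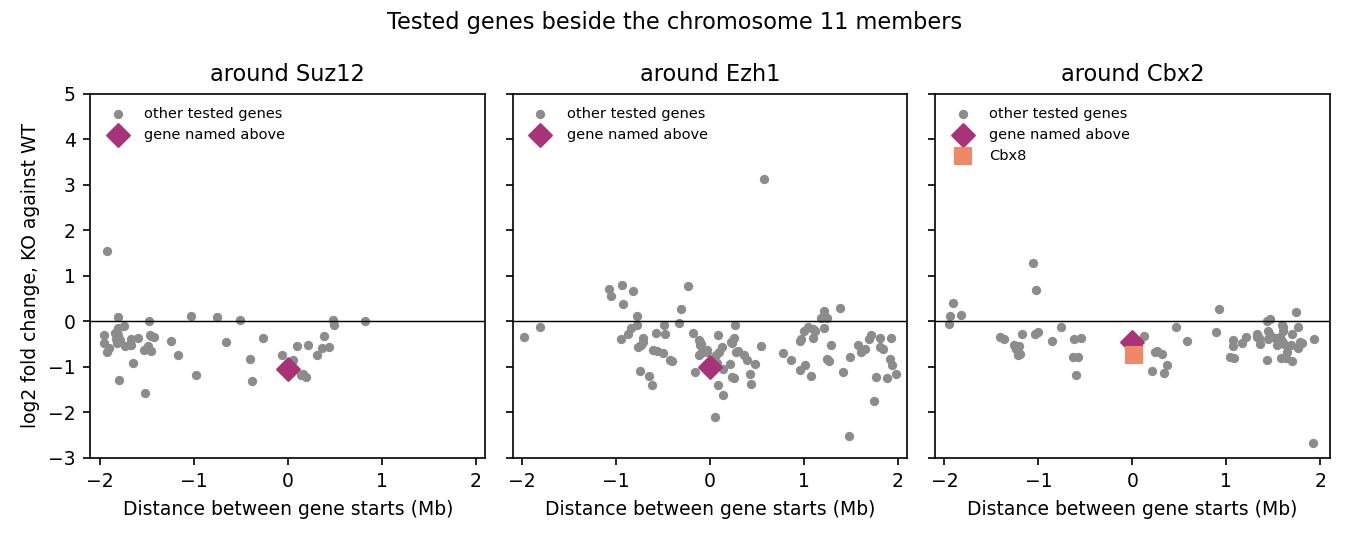
Log2 fold change of KO against WT for tested genes that start within 2 Mb of *Suz12*, *Ezh1* and *Cbx2* on chromosome 11, against the distance between gene starts in Mb, with the gene itself as a diamond and *Cbx8* as a square. Most grey points lie below 0 in each panel. Of the tested genes within 2 Mb 48 of 55, 91 of 105 and 68 of 77 were below 0, the last count including *Cbx8*.

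The list of other Polycomb genes held 37 further subunits and partners of PRC1 and PRC2, of which 36 were tested. In it 14 were called, 6 higher and 8 lower, beside 41.1% of all genes called, 18.8% higher and 22.3% lower, so the list was near the background. It had a median log2 fold change of -0.02 against -0.01 over all genes tested. The list has 3 genes on chromosome 11, of which 1 was called lower, *Pcgf2*, which encodes the PRC1 subunit MEL18. It was at 25.2, 23.4 and 24.0 FPKM in WT and at 17.7 and 18.1 FPKM in KO (log2 fold change -0.43, adjusted p = 0.0011), and at 0.05 (adjusted p = 0.50) after subtraction of the chromosome median. *Epop*, an adaptor of PRC2, differed from its chromosome, with 23.1 FPKM in WT and 23.2 FPKM in KO (log2 fold change 0.01, adjusted p = 0.93). After subtraction of the median it was at 0.49 (adjusted p = 0.011).

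Of the further PRC2 subunits *Rbbp4*, *Rbbp7*, *Aebp2*, *Phf1*, *Phf19* and *Epop*, only *Rbbp7* was called. It encodes a histone-binding subunit and was at 61.9, 64.0 and 63.6 FPKM in WT and at 80.1 and 74.0 FPKM in KO (log2 fold change 0.29, adjusted p = 0.0044). Its paralogue *Rbbp4* had 57.7 FPKM in WT and 56.9 FPKM in KO (adjusted p = 0.72). The accessory subunits *Aebp2* (log2 fold change -0.13, adjusted p = 0.24), *Phf1* (0.24, adjusted p = 0.19) and *Phf19* (-0.59, adjusted p = 0.053) were not called. After subtraction of the chromosome median *Aebp2* was called lower, at -0.30 (adjusted p = 0.016). *Phf19* was called at a pseudocount of 1 (adjusted p = 0.049), with equal medians (adjusted p = 0.044), with eBayes without trend (adjusted p = 0.031) and without KO library 1 (adjusted p = 0.038). The lowest log2 fold change of the list was that of *Ezhip*, whose protein inhibits PRC2, with 0.30 FPKM in WT and 0.05 FPKM in KO (-1.41, adjusted p = 0.0059).

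In PRC1, *Bmi1*, the paralogue of *Pcgf2*, rose from 3.68 to 5.41 FPKM (log2 fold change 0.54, adjusted p = 0.0024). *Phc2*, which encodes a polyhomeotic subunit, rose from 1.06 to 1.86 FPKM (0.76, adjusted p = 0.0056), *Cbx6* from 4.32 to 5.63 FPKM (0.37, adjusted p = 0.012) and *Pcgf1*, of a variant PRC1, from 3.72 to 4.76 FPKM (0.35, adjusted p = 0.026). The call of *Pcgf1* was lost without WT library 1 or 2 or KO library 2 (adjusted p = 0.069, 0.073 and 0.14), with no filter on low values (adjusted p = 0.093) and after subtraction of the chromosome median (0.18, adjusted p = 0.13). That of *Cbx6* was lost without KO library 2 (adjusted p = 0.068) and with no filter (adjusted p = 0.0504). *Ring1*, the paralogue of *Rnf2*, had 1.40 FPKM in WT and 1.43 FPKM in KO (adjusted p = 0.84). Lower in KO were *Bcorl1*, which belongs with PCGF1 (3.46 to 1.89 FPKM, log2 fold change -0.84, adjusted p = 0.00096), *Scml2* (1.18 to 0.625 FPKM, -0.81, adjusted p = 0.019) and *Auts2*, a partner in another variant PRC1 (9.72 to 6.80 FPKM, -0.51, adjusted p = 0.0053). The call of *Scml2* was lost without WT library 1 or 2 or KO library 2 (adjusted p = 0.051, 0.058 and 0.0999) and with no filter on low values (adjusted p = 0.094). The paralogues *Bmi1* and *Pcgf2* were called in opposite directions before the chromosome median was subtracted.

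Enzymes and partners that remove the Polycomb marks made a list of 8 genes, all tested, of which 2 were called lower and 0 higher, beside 22.3% and 18.8% of all genes tested. *Kdm6b*, an H3K27 demethylase on chromosome 11, went from 11.2 to 8.37 FPKM (log2 fold change -0.42, adjusted p = 0.0050), and was at 0.06 (adjusted p = 0.57) after subtraction of the chromosome median. *Asxl1*, a partner of the H2A deubiquitinase, went from 22.2 to 18.8 FPKM (log2 fold change -0.24, adjusted p = 0.0062).

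Developmental regulators that are textbook targets of Polycomb silencing in ES cells formed a list of 40 genes, of which 20 passed the filter on low values. Of the 20, 4 were called, 2 in each direction, and 16 were not, beside 41.1% called of all genes tested, and the median log2 fold change was 0.06. *Sox1*, a neural transcription factor, was at 0.08, 0.10 and 0.08 FPKM in WT and at 0.47 and 0.67 FPKM in KO (log2 fold change 1.83, adjusted p = 0.0015). *Neurog1*, which drives neurons, was at 0.35, 0.40 and 0.34 FPKM in WT and at 0.03 FPKM in both KO libraries (-1.83, adjusted p = 0.0010). For *Sox1* and *Neurog1* the groups did not overlap, and the levels were under 1 FPKM in every library. *Sox1* is also among the 16 markers of other cell types, of which 10 were tested. Of these, *Eomes*, *T* and *Sox1* were called higher and *Nes* lower. All 10 pluripotency markers were tested. Of them 5 were called higher and 2 lower, beside 18.8% and 22.3% of all genes tested. The 5 were *Klf4*, *Tfcp2l1*, *Tbx3*, *Esrrb* and *Pou5f1*, at log2 fold changes of 0.27 to 0.74, and *Fbxo15* and *Dppa3* were lower. The summed level of the 10 was 818 to 834 FPKM in WT and 857 to 918 FPKM in KO. The marker with the lowest log2 fold change was *Dppa3*, at 24.2, 35.6 and 37.0 FPKM in WT and at 9.04 and 4.43 FPKM in KO (-2.30, adjusted p = 0.0027). The part of either set of markers in the values of the Polycomb genes and targets was not tested.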

How the data were processed

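The authors deposited gene expression as FPKM, rounded to 2 decimals, 1 column per library, from ribodepleted total RNA sequenced as paired reads of 150 bp. The submitters' processing notes name mm10, FastQC 0.11.5, Trim Galore 0.2.7, BWA 0.6.2, Picard, MACS2 2.1.0 and STAR 2.5.2 without roles. The counter, the annotation and the use of strand are not given in the sources used here. The authors also deposited ZFP57 peaks as positions (1423 for C57BL/6J and 743 named for hybrid lines), as 1 list over the replicates, for C57BL/6J of peaks called separately in 2 or more WT replicates, and with no score.

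Genes whose mean over the libraries reached 0.1 FPKM entered the test, WT (n = 3) against KO (n = 2), on log2(FPKM + 0.1) with limma 3.58.1 in R 4.3.3 (eBayes with trend, two-sided, Benjamini-Hochberg, threshold 0.05). Such fold changes understate the change of low genes. In a refit, the median deviation from the gene means was subtracted per library and chromosome with at least 20 tested genes. The test was checked on simulated data. Positions came from RefSeq (GRCm38.p6), 23190 genes by symbol and 1095 by synonym, with 111 unmatched and 13 ambiguous. Depth was inferred from genes under 150 bases, of whose values 92.0 to 94.2% were whole multiples of 1 fragment within 0.0008 FPKM × kb, against 8.14 to 9.42% by chance. Fragment numbers are approximate and cover counting error only.

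The members and lists were chosen with earlier results of these data known. Genes named beyond the 10 members are, in each Polycomb list, the called genes at both ends (4 highest, 4 lowest), *Zfp57*, and fixed paralogues (*Ring1*, *Cbx6*, *Bmi1*, *Pcgf2*) and PRC2 subunits (*Rbbp4*, *Rbbp7*, *Aebp2*, *Phf1*, *Phf19*, *Epop*). *Eomes*, *T*, *Nes*, *Dppa3*, *Fbxo15*, *Klf4*, *Tfcp2l1*, *Tbx3*, *Esrrb*, *Pou5f1*, *Dcn* and *Apobec3* were named after their values were seen. Some genes that this rule covers are not reported here, and the counts of the lists include them. Alternatives covered pseudocounts, filters, scaling, chromosome medians, the variance model, a replicate block, single libraries and thresholds. The ChIP-seq of KAP1 and H3K9me3 was not used here. Software further included Python 3.11.15, numpy 2.4.6, pandas 2.3.3 and matplotlib 3.10.9.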

Additional observations from a re-analysis of the deposited data

How the results depend on the processing

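*Suz12* and *Ezh1* were called lower under the 14 alternatives of the fit, with log2 fold changes of -1.13 to -0.57 and -1.12 to -0.52. Of all genes 6002 were called, 3012 with the replicate block and 1172 when a log2 change of 1 or more in size was also asked for, and 4146 to 4831 without 1 library. Of the members 7 were called, 4 after subtraction of the chromosome median, 3 with the replicate block, 1 with that size (*Suz12*, *Ezh1* being at -0.997), and 5 to 7 without 1 library. The replicate numbers were not shown to pair the libraries (same-numbered deviations correlated at -0.07 and -0.04 over genes). No KO library is numbered 3, so the block takes WT library 3 out of the estimates and leaves less to measure the spread. Under the block the calls of *Ezh2*, *Eed*, *Cbx7* and *Cbx8* were lost, as were those of *Pcgf1* and *Asxl1* among the other genes named. Of the other Polycomb genes 14 were called, 9 with no filter on low values and 1 with the larger change. Of the targets 4 were called, and 1 of the 4 tested at a mean of at least 1 FPKM. The contrast of chromosome 11 and other members, -0.87, was -0.67 at a pseudocount of 1, -0.35 after subtraction of the chromosome median, -0.64 with medians over members, and -0.98 to -0.75 without 1 library. Subtraction of the chromosome median turned *Cbx2* to 0.031, *Pcgf2* to 0.045 and *Kdm6b* to 0.059. The cause was not tested, beyond the medians that the subtraction removes. Added after the data were seen were the contrast without *Cbx8* and alternatives of the refit, in which 3 to 5 members were called without 1 library. Among the 10 members depth limits *Cbx8* most, with about 11 to 26 fragments.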
